A study of Homo sapiens with 38 samples.

Results

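The transcript response to MS177 was compared between the breast cancer cell lines T47D and BT-549. MS177 is, per the labels, a PROTAC aimed at EZH2. The comparison used 8 of the 38 samples of the series, in 4 groups of 2 libraries each: T47D with MS177, T47D with DMSO, BT-549 with MS177 and BT-549 with DMSO. MS177 was given at 2.5 uM and the DMSO vehicle at 0.125%, and RNA was taken after 48 h. Both lines were grown in RPMI1640 medium with fetal bovine serum and insulin. The labels do not say that the libraries of a group came from separate cultures, so p-values measure the spread between these libraries, which may be technical. For each gene the response was MS177 minus DMSO on log2(normalized count + 1), and the difference was the T47D response minus the BT-549 response. A positive difference therefore marks a response that was higher in T47D. The lines were normalized in separate tables, so levels are set side by side only as a description. Genes were kept where at least 2 libraries of each line had 10 or more normalized counts, which left 14739 of the 15513 genes listed for both lines. A further 354 genes passed in T47D alone and 326 in BT-549 alone, and have no difference here.

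EZH2 is the enzyme of polycomb repressive complex 2 (PRC2), which methylates lysine 27 of histone H3 and keeps developmental genes silent. A PROTAC joins a ligand of its target to a ligand of a ubiquitin ligase, so that the target is marked for the proteasome. The transcription factor FOXM1, which the series title names together with EZH2, drives genes of the G2 phase and of mitosis, while E2F factors drive genes of DNA replication once RB is phosphorylated. T47D is an estrogen receptor positive luminal line, and BT-549 is a triple-negative line with mesenchymal features. Summed luminal identity markers took 2.39% and 1.53% of the counts of the T47D MS177 libraries and 1.83% and 1.77% in T47D with DMSO. In BT-549 that share was 0.0901% and 0.0948% with MS177, and 0.0936% and 0.0924% with DMSO. Mesenchymal markers took 0.645% to 0.902% of the BT-549 counts and 0.0230% or less of the T47D counts, so both labels fit their markers. Blood, immune and endothelial markers summed to 0.00184% of the counts or less in every library. ESR1, the estrogen receptor, had 1330.3 and 2319.9 normalized counts with MS177, against 5083 and 4018 with DMSO, in T47D. The same gene had 9.35 and 11.6 with MS177 and 1.06 and 8.32 with DMSO in BT-549, where it did not pass the filter.

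Replicates 1 and 2 of T47D with MS177 were less alike than any other pair. Reads over the listed genes came to 37.2 and 33.5 M in T47D with MS177, 40.4 and 33.5 M in T47D with DMSO, 40.5 and 41.7 M in BT-549 with MS177, and 36.5 and 35.3 M in BT-549 with DMSO. Over the tested genes, the log2 difference between the libraries of a pair had an SD of 1.20 in T47D with MS177 and 0.351 in T47D with DMSO. In BT-549 it was 0.464 with MS177 and 0.422 with DMSO. The T47D MS177 pair differed by more than 1 on the log2 scale in 5354 genes (36.3%), and the BT-549 MS177 pair in 409 (2.78%). Ribosomal protein transcripts took 11.1% of the counts in T47D MS177 replicate 1, 4.37% in replicate 2, and 4.16% and 4.77% in T47D with DMSO. The same share was 5.89% and 7.82% in BT-549 with MS177, and 6.04% and 4.89% with DMSO. When tested genes were split by transcript length into 5 equal groups, the shortest group had a median response of 0.28 in T47D replicate 1 and -0.08 in replicate 2, and the longest group -0.51 and 0.20. The median difference between the lines was 0.08 in the shortest group and -0.14 in the longest. The part of length and of ribosomal protein share in the results was not tested. Genes described by their counts show both T47D MS177 libraries. For genes given by a fitted value alone, that value can hide a pair that disagreed.

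**Figure D1:**
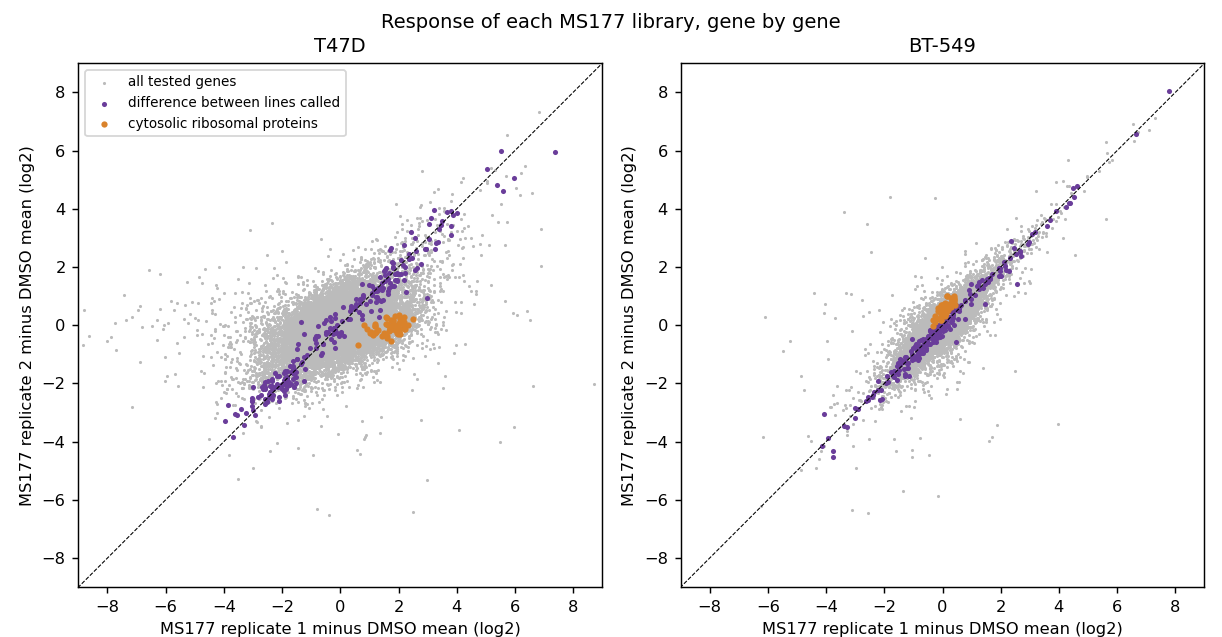
Response of each MS177 library against the mean of its DMSO pair (log2), replicate 1 on the horizontal and replicate 2 on the vertical axis, for T47D (left) and BT-549 (right). Each point is 1 of 14739 genes, the dashed line marks equal responses, purple points are the 254 genes whose difference between the lines passed the test, and orange points are 52 cytosolic ribosomal proteins. The T47D cloud is wider, and the purple points lie near the dashed line in both lines.

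In all, 254 of the 14739 genes (1.72%) responded differently in T47D and BT-549 (limma, adjusted p under 0.05). The response was higher in T47D for 123 of them (0.835%) and lower for 131 (0.889%), and 2306 genes had an unadjusted p under 0.05. These shares of called genes are the background for every count of called list genes below. Differences of the called genes were 1.29 to 6.07 in size, with a median of 2.14 on the log2 scale, and their adjusted p-values ran only over 0.0165 to 0.0497. All 254 had both T47D libraries on the same side of both BT-549 libraries, which held above BT-549 for 23.4% of all tested genes and below it for 24.1%. The T47D MS177 libraries lay 0.265 apart at the median called gene and 0.741 apart at the median tested gene, so the test picked genes on which that pair was close.

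The number of called genes was fragile. It was 0 when T47D DMSO replicate 1, T47D DMSO replicate 2, or any 1 of the 4 BT-549 libraries was left out, with 1347 to 1476 genes then at an unadjusted p under 0.05. It was 2223 without T47D MS177 replicate 1 and 7159 without replicate 2, where the spread of the remaining libraries stood in for the T47D MS177 group, and all 254 genes were among both sets. When each group was weighted by its own spread, 88 genes were called, 82 of them among the 254. Scaling each library to its summed counts gave 123 calls, 109 of them shared. Each list described below likewise had 0 calls without any 1 of those 6 libraries.

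**Figure D2:**
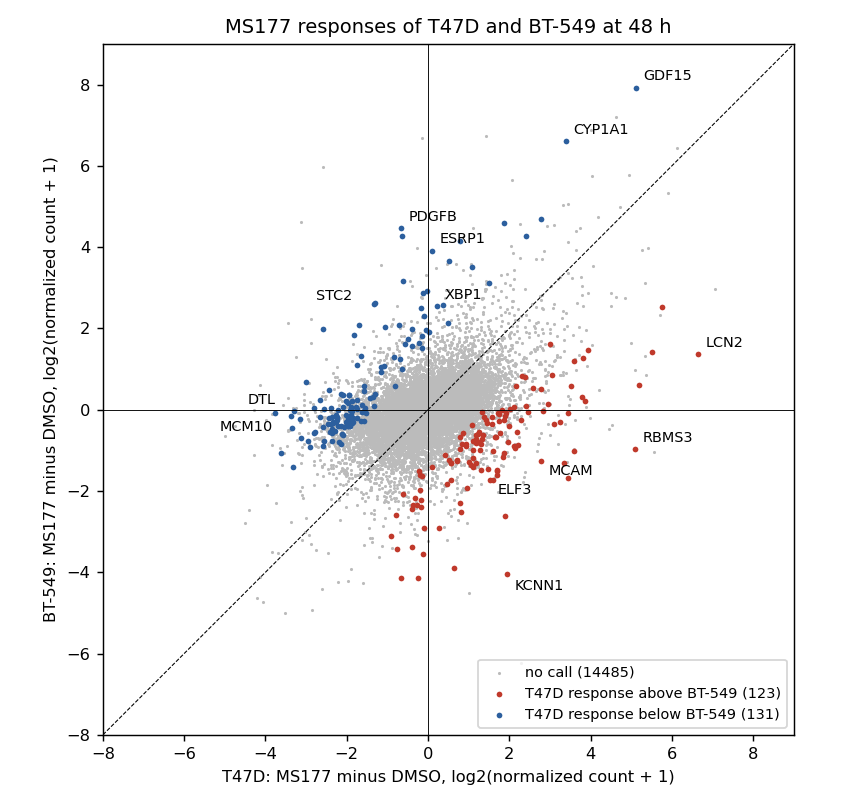
MS177 response of T47D (horizontal axis) against that of BT-549 (vertical axis), each as MS177 minus DMSO on log2(normalized count + 1), for 14739 genes. Red points are the 123 genes whose response was higher in T47D, blue points the 131 genes whose response was lower, and the dashed line marks equal responses. The blue points form a cluster at about -2 in T47D and near 0 in BT-549.

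By line, MS177 changed 2254 genes in T47D (15.3%; 1065 higher, 7.23%, and 1189 lower, 8.07%) and 875 in BT-549 (5.94%; 430 higher, 2.92%, and 445 lower, 3.02%). Fitted on the T47D libraries alone, no gene was called in T47D, with 2596 at an unadjusted p under 0.05, and BT-549 alone gave 3468 calls. The smaller number in BT-549 in the joint fit therefore rests partly on the spread it shares with T47D. The calls in T47D likewise rest on the spread shared with BT-549. Both limits hold for every count of genes that rose or fell in a line below. Both lines rose in 239 genes and fell in 170. Among genes with a lower response in T47D, 85 fell in T47D with no call in BT-549, 25 rose in BT-549 with no call in T47D, 7 fell in T47D and rose in BT-549, 8 rose in both lines and 6 fell in both. Among genes with a higher response in T47D, 63 rose in T47D with no call in BT-549, 34 fell in BT-549 with no call in T47D, 17 rose in T47D and fell in BT-549, 8 rose in both and 1, MLLT3, fell in both.

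Genes of DNA replication, DNA repair and mitosis fell in T47D in the joint fit, mostly with no call in BT-549. Their list medians in BT-549 were also below 0, at -0.34, -0.21 and -0.65. Of 44 genes of the E2F and S phase list, 19 had a lower response in T47D and none a higher one, against 0.889% of all tested genes in the lower direction. The median response of the list was -2.15 and -2.19 in the T47D libraries and -0.37 and -0.30 in the BT-549 libraries. In T47D 43 of the 44 fell, against 8.07% of all tested genes, and in BT-549 1 did (E2F2), against 3.02%. In all 44 both T47D libraries lay below both BT-549 libraries, against 24.1% of all tested genes. The median difference was -1.78, against 0.01 over all tested genes. In bulk libraries, fewer cycling cells and less RNA per cell cannot be told apart. The list had 42 called genes without T47D MS177 replicate 1, 41 without replicate 2 and 13 with weights per group. It had 0 without any 1 of the other 6 libraries.

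DTL, a substrate receptor of the CUL4 ubiquitin ligase that degrades replication licensing factors, had 197 and 426 normalized counts with MS177, against 2943 and 2764 with DMSO, in T47D. In BT-549 it had 2102 and 1745 with MS177 and 1844 and 2084 with DMSO. Both T47D MS177 libraries were far below their controls, replicate 1 the lower, and the BT-549 groups overlapped. Its response was -3.29 ± 0.36 in T47D and -0.03 ± 0.36 in BT-549, a difference of -3.26 ± 0.51 (SE; limma adjusted p = 0.0422). MCM10, which helps activate the replicative helicase, had 229.7 and 341 normalized counts with MS177, against 2810.1 and 2879.5 with DMSO, in T47D. It had 1456 and 1211 with MS177 and 1746 and 1876 with DMSO in BT-549, where the groups did not overlap either but lay much closer. The difference of MCM10 was -2.89 ± 0.32 (limma adjusted p = 0.0248). The origin licensing factor CDC6 (-2.85) and the helicase subunit CDC45 (-2.46) also differed, and so did the helicase core subunits MCM3 (-2.05), MCM5 (-2.22) and MCM6 (-2.13). Both subunits of ribonucleotide reductase, RRM1 (-1.57) and RRM2 (-2.42), were among the 19, as were the clamp loader subunits RFC3 (-2.05) and RFC5 (-2.03).

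The DNA repair and checkpoint list, most of whose genes act in homologous recombination, followed the same pattern. In T47D 23 of its 28 genes fell (8.07% of all tested genes), and in BT-549 none did (3.02%). For 9 the response was lower in T47D (0.889% of all tested genes), with a median difference of -1.93. The list had 4 calls with weights per group and 5 with summed counts. EXO1, a nuclease that resects DNA ends, had 214 and 272 normalized counts with MS177, against 1553 and 1494 with DMSO, in T47D. In BT-549 EXO1 had 2807 and 2484 with MS177 and 2115 and 2362 with DMSO, so MS177 and DMSO separated downwards in T47D and upwards, by little, in BT-549. The difference was -2.89 ± 0.26 (limma adjusted p = 0.0217), with responses of -2.65 in T47D and 0.24 in BT-549. BRCA2, a mediator of homologous recombination, had 107 and 147 normalized counts with MS177, against 782 and 595 with DMSO, in T47D, and 527 and 361 with MS177 and 272 and 353 with DMSO in BT-549. Its difference was -2.93 ± 0.42 (limma adjusted p = 0.0345). Other called members included RAD54L (-2.47), XRCC2 (-2.20), BRCA1 (-2.06), FANCI (-1.94), FANCG (-1.57) and CHEK1 (-1.51).

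Genes of the FOXM1 and G2/M list fell in T47D too. In T47D 40 of 44 fell (8.07% of all tested genes), and in BT-549 1 did (3.02%). The median response was -2.06 and -1.77 in T47D and -0.65 and -0.62 in BT-549. All 44 differences were below 0, against 7330 of all 14739 tested genes, with a median of -1.28. A lower response in T47D was called for 3 of the 44 (0.889% of all tested genes). That count was 1 with weights per group, 37 without T47D MS177 replicate 1, 36 without replicate 2 and 0 without any 1 of the others. With the spread taken from T47D and BT-549 libraries of all compounds it was 34, against 40 for the E2F and S phase list. How far the lists differ thus depends on the fit and was not tested. CDK1, the kinase that drives entry into mitosis, had 1297 and 1212 normalized counts with MS177, against 6062 and 6853 with DMSO, in T47D. The BT-549 libraries held 3229 and 3752 CDK1 counts with MS177 and 5679 and 4680.4 with DMSO. MS177 was below DMSO in each line without overlap, the responses being -2.36 in T47D and -0.57 in BT-549, and the difference was -1.79 ± 0.26 (limma adjusted p = 0.0323). KIF2C, a kinesin that frees wrongly attached microtubules, differed by -1.72 ± 0.21 and MAD2L1, of the spindle checkpoint, by -1.61. FOXM1 itself had 1991 and 2428 normalized counts with MS177, against 7832 and 7584 with DMSO, in T47D. In BT-549 FOXM1 had 6809 and 5804 with MS177 and 9649 and 10455 with DMSO. FOXM1 fell in T47D (-1.81 ± 0.18, limma adjusted p = 0.00342), its response in BT-549 did not pass the test (-0.68 ± 0.18, 0.086), and neither did the difference (-1.13 ± 0.25, 95% interval -1.74 to -0.52, limma adjusted p = 0.0931).

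**Figure D3:**
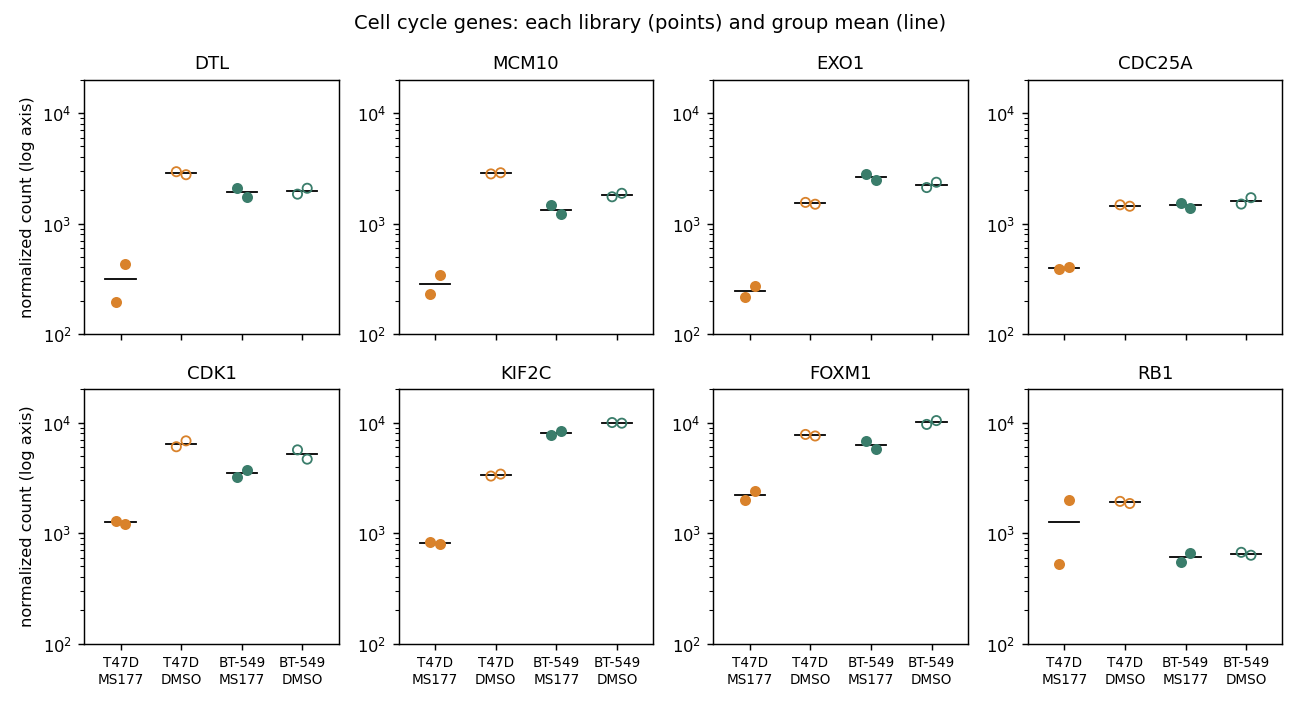
Normalized counts (log axis) of 8 cell cycle genes in T47D with MS177, T47D with DMSO, BT-549 with MS177 and BT-549 with DMSO. Points are libraries, 2 per group, filled for MS177 and open for DMSO, and lines are group means. T47D MS177 points lie well below their DMSO points in every panel except RB1, where replicate 1 is low and replicate 2 is level with DMSO.

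Among G1 regulators, the phosphatase CDC25A, which activates CDK2, had 387 and 400.1 normalized counts with MS177, against 1476 and 1433 with DMSO, in T47D. In BT-549 it had 1525 and 1390.2 with MS177 and 1499 and 1712 with DMSO. The T47D groups were far apart and the BT-549 groups overlapped, and the difference was -1.75 ± 0.22 (limma adjusted p = 0.0276), the only call among 16 genes of the G1 cyclin and RB list. RB1, which restrains E2F factors, had 523 and 1978 normalized counts with MS177, against 1941 and 1857 with DMSO, in T47D, so that the difference of -0.78 (95% interval -2.74 to 1.18) rests on a pair that disagreed.

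Promoters of 3 of these cell cycle genes, and of XBP1 described with the stress genes, are printed to show the short motifs that were counted in the promoters of these groups. Each is the RefSeq window from 250 bases before to 50 after the annotated start (GRCh38.p14), read along the gene. Positions are chr1:212035498-212035797, plus strand, for DTL, chr3:48188368-48188667, minus strand, for CDC25A, chr10:60778081-60778380, plus strand, for CDK1, and chr22:28800520-28800819, minus strand, for XBP1. Capitals mark an E2F-like motif and CCAAT boxes in DTL and CDC25A, a cell cycle homology region (CHR) and a CCAAT box in CDK1, and an ER stress element, which includes a CCAAT box, in XBP1.
DTL: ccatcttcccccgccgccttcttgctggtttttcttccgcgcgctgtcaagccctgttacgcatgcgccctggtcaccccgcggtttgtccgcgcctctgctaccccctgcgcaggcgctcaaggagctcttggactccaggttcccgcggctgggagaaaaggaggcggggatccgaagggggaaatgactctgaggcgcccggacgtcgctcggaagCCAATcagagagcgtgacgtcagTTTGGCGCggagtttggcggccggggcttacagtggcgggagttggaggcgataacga
CDC25A: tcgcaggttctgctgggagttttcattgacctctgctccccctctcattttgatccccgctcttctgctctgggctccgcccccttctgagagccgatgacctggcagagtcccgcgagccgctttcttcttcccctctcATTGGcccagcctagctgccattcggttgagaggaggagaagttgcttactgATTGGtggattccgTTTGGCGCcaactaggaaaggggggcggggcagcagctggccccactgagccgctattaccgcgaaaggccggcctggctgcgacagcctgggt
CDK1: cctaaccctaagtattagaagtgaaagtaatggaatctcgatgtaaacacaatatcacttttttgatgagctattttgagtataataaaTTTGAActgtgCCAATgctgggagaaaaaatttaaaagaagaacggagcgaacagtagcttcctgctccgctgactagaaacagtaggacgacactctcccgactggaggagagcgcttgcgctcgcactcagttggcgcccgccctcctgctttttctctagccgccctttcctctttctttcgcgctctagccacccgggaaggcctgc
XBP1: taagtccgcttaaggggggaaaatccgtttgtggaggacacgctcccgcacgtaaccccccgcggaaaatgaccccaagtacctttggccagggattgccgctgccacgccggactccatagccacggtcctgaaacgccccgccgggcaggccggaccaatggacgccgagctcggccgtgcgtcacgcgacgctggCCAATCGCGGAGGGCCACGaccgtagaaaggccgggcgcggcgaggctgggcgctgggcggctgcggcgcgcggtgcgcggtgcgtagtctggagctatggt

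The E2F-like motif (TTTGGCGC or TTTCCCGC, on either strand) was in 14.3% of the 105 promoters found for genes with a lower response in T47D, 1.10% of the 91 found for genes with a higher response, 3.76% of 10398 promoters of tested genes and 2.31% of all 27305. It was in 50% of 38 promoters of the E2F and S phase list. The CHR (TTTGAA) was in 71.1% of 38 promoters of the FOXM1 and G2/M list, 20% of the lower group and 14.3% of the higher group. It was in 9.33% of tested genes and 15.4% of all 27305 promoters. CCAAT boxes were in 49.5% of the lower group, 41.8% of the higher group and 37.0% of tested genes. These are counts of letters in a fixed window, and the lists were drawn up from genes known to be E2F or FOXM1 targets.

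Among CDK inhibitors and p53 targets, the response was higher in T47D for 3 of 27 genes and lower for 1, against 0.835% and 0.889% of all tested genes. The list had 2 calls with weights per group and 1 with summed counts. CDKN1A, the inhibitor p21, rose by 2.39 ± 0.16 in T47D and 0.81 ± 0.16 in BT-549, a difference of 1.57 ± 0.23 (limma adjusted p = 0.0342). BTG2, an antiproliferative p53 target, had 952 and 1222 normalized counts with MS177, against 312 and 351 with DMSO, in T47D, and 52.3 and 55.2 with MS177 and 155 and 179.9 with DMSO in BT-549. It rose in T47D and fell in BT-549, without overlap in either, and differed by 3.32 ± 0.30 (limma adjusted p = 0.0217). ZMAT3, a p53 target that regulates splicing, differed by 2.31. The list is mixed, and SESN2 (-1.88), a sestrin also in the ATF4 list, went the other way.

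Most ATF4 and amino acid response genes rose in both lines, and several rose less in T47D. Of 43, 27 rose in T47D (7.23% of all tested genes) and 38 in BT-549 (2.92%), and the median response was 1.54 and 1.55 in the T47D libraries and 2.04 and 2.11 in the BT-549 libraries. ATF4 is the transcription factor made when the integrated stress response slows translation. The response was lower in T47D for 6 of the 43 (0.889% of all tested genes) and higher for 1, CEBPB (1.58), and the list had 3 calls with weights per group or with summed counts. In T47D 4 of 27 ER chaperone and ERAD genes, 2 of 18 NRF2 targets and 1 of 16 heat shock proteins rose. The counts of these lists in BT-549 were 5, 2 and 0. Of all tested genes 7.23% rose in T47D and 2.92% in BT-549. GDF15, a secreted stress hormone, had 9373 and 6297 normalized counts with MS177, against 188 and 261 with DMSO, in T47D. Its BT-549 values were 29036 and 35086 with MS177 and 127 and 134 with DMSO. GDF15 thus rose in all 4 MS177 libraries, by 5.11 in T47D and 7.92 in BT-549, and differed by -2.82 ± 0.37 (limma adjusted p = 0.0311). The pseudokinase TRIB3 (-1.92) and SESN2 also rose in both lines and less in T47D. The serine synthesis enzyme PSAT1 (-1.65) and the amino acid transporter SLC1A4 (-2.22) rose in BT-549 only by the test of each line. Core members did not pass the test of the difference: ASNS responded by 2.66 in T47D and 3.70 in BT-549, CHAC1 by 3.75 in T47D and 4.48 in BT-549, and ATF3 by 3.45 in T47D and 4.12 in BT-549.

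STC2, a secreted glycoprotein induced by both estrogen and ATF4, moved in opposite directions. It had 26739 and 33575 normalized counts with MS177, against 79561 and 71887 with DMSO, in T47D, and 23309 and 21729 with MS177 and 3581 and 3822 with DMSO in BT-549. MS177 and DMSO did not overlap in either line, and the difference was -3.94 ± 0.28 (limma adjusted p = 0.0165). XBP1, the transcription factor of the unfolded protein response, had 46402 and 44626 normalized counts with MS177, against 36750.0 and 41021 with DMSO, in T47D. In BT-549 it had 10187 and 11711 with MS177 and 1933 and 1779.9 with DMSO. The level rose only in BT-549 by the test of each line, and the difference was -2.33 ± 0.25 (limma adjusted p = 0.0231), the only call among 27 ER chaperone and ERAD genes.

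HMOX1, the heme-degrading enzyme, had 246 and 266 normalized counts with MS177, against 244 and 289.9 with DMSO, in T47D, and 39512 and 39710.0 with MS177 and 10217 and 10218 with DMSO in BT-549. T47D groups overlapped and BT-549 rose, a difference of -2.01 ± 0.23 (limma adjusted p = 0.0241) and the only call among 18 NRF2 targets. CYP1A1, a monooxygenase induced by the aryl hydrocarbon receptor, had 383 and 578 normalized counts with MS177, against 46.8 and 40.8 with DMSO, in T47D, and 778 and 737 with MS177 and 7.39 and 6.24 with DMSO in BT-549. It rose in both lines and less in T47D (-3.21 ± 0.38, limma adjusted p = 0.0271), the single call of 7 genes of its list. On the deposited log2 values the CYP1A1 difference was -0.59 (limma adjusted p = 0.42), so its size and call depend on the scale. In the hypoxia and glycolysis list 1 of 32 was called, NDRG1 (-1.67), a stress-induced gene that rose in BT-549.

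**Figure D4:**
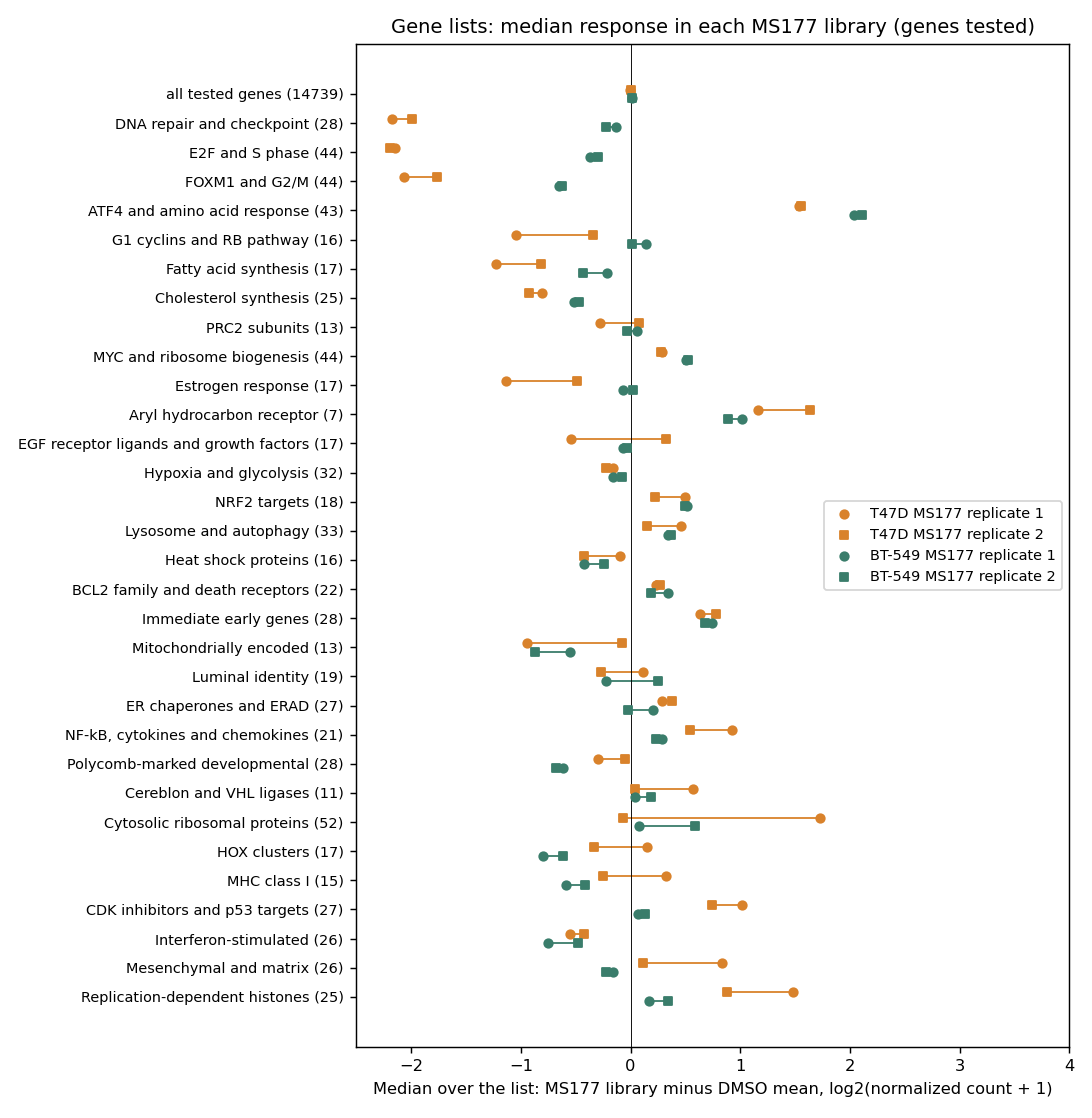
Median response of each gene list in the 4 MS177 libraries, each against the mean of its DMSO pair, on log2(normalized count + 1). Orange marks are T47D and green marks BT-549, circles are replicate 1 and squares replicate 2, lines join the libraries of a pair, and the number of genes tested stands in brackets. The E2F, DNA repair and FOXM1 lists lie near -2 in both T47D libraries, and the ribosomal protein list lies at 1.72 in T47D replicate 1 and -0.07 in replicate 2.

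In the cholesterol synthesis list 13 of 25 genes fell in T47D (8.07% of all tested genes) and 1 in BT-549 (3.02%). The medians were -0.81 and -0.92 in T47D and -0.52 and -0.47 in BT-549. A difference was called for 1, INSIG1, which retains the sterol sensor in the ER. It had 478 and 416 normalized counts with MS177, against 1770.0 and 2033 with DMSO, in T47D, and 1591 and 1626 with MS177 and 2598 and 2378 with DMSO in BT-549. The groups were apart in both lines, and the difference was -1.46 ± 0.24 (limma adjusted p = 0.0453). No fatty acid synthesis gene of 17 was called, and ELOVL6, an elongase, had the largest difference at -2.17 ± 0.45 (limma adjusted p = 0.0832).

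Line identity lists had 2 calls among 19 luminal, 2 among 17 estrogen response and 1 among 26 mesenchymal genes, against 1.72% of all tested genes. The splicing factor ESRP1, an epithelial gene, had 5853 and 8605 normalized counts with MS177, against 6503 and 6711 with DMSO, in T47D, so T47D overlapped its controls. BT-549 had 139 and 140.4 with MS177 and 7.39 and 9.36 with DMSO, a rise at a level far below that of T47D. The difference was -3.81 ± 0.33 (limma adjusted p = 0.0217), and -1.49 on the deposited log2 values (limma adjusted p = 0.0733). ELF3, an epithelial ETS factor, had 3174 and 3109 normalized counts with MS177, against 1063 and 1112 with DMSO, in T47D, and 97.2 and 93.9 with MS177 and 354 and 286 with DMSO in BT-549. It rose in T47D and fell in BT-549, a difference of 3.25 ± 0.24 (limma adjusted p = 0.0165). Those were the calls among 19 luminal genes, and STC2 and XBP1 were the calls among 17 estrogen response genes. Of 26 mesenchymal and matrix genes, the fibrillar collagen COL3A1 was called (2.79 ± 0.36, limma adjusted p = 0.0294), at 39.8 and 36.2 normalized counts with MS177 and 11.7 and 18.4 with DMSO in T47D, against 6091 and 4732 with MS177 and 14309 and 15727 with DMSO in BT-549. AREG, an EGF receptor ligand and estrogen target, did not pass the filter in BT-549, and had 48572 and 14891 normalized counts with MS177, against 2268 and 2699.9 with DMSO, in T47D.

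In the NF-kB, cytokine and chemokine list 21 of 30 genes were tested. Of these 8 rose in T47D (7.23% of all tested genes) and 4 in BT-549 (2.92%). The response was higher in T47D for 4 (0.835% of all tested genes) and lower for 1 (0.889%), the mitochondrial superoxide dismutase SOD2 (-1.39). The list had 0 calls under weights per group. Some members that were not tested were high with MS177 in BT-549. The cytokine IL6 had 3642 and 4079.7 normalized counts with MS177, against 155 and 96.7 with DMSO, in BT-549, and the chemokine CXCL2 had 6780.1 and 7468 with MS177, against 2118 and 1754 with DMSO. CXCL3, CSF2, PTGS2 and IL1B were also higher with MS177 than with DMSO there, without overlap. TNF, under the filter in BT-549, had 142 and 102 normalized counts with MS177, against 16.7 and 12.2 with DMSO, in T47D, so the tested members do not give the direction of the whole list. LCN2, a siderophore-binding protein of the acute phase, had 2009 and 744 normalized counts with MS177, against 15.1 and 8.17 with DMSO, in T47D. In BT-549 it had 71.0 and 84.2 with MS177 and 27.5 and 31.2 with DMSO. Both T47D MS177 libraries were far above their controls, replicate 1 more so, and the difference was 5.28 ± 0.73 (limma adjusted p = 0.0323). IRF1, an interferon regulatory factor (2.26), the growth factor CSF1 (1.89) and the NF-kB subunit RELB (1.68) were the others. HBEGF, an EGF receptor ligand, rose by 3.01 in T47D and 1.61 in BT-549 and was the only call (1.40, limma adjusted p = 0.0475) among 17 growth factor genes. Among 28 immediate early genes, the MAP kinase phosphatase DUSP1 had a higher response in T47D (2.52), against 0.835% of all tested genes. Its relatives DUSP4 (-1.86) and DUSP5 (-2.18) had lower ones, against 0.889%. That list had 0 calls under summed counts.

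Transcripts of PRC2 subunits gave no call among 13. EZH2, the target of MS177, had 1583 and 1856 normalized counts with MS177, against 1472 and 1432 with DMSO, in T47D, and 3798 and 3614 with MS177 and 2899.6 and 3051 with DMSO in BT-549. MS177 was slightly above DMSO in every pair, the responses (0.24 in T47D, 0.32 in BT-549) did not pass the test, and the difference was -0.08 ± 0.22 (95% interval -0.61 to 0.46, limma adjusted p = 0.893), turning to 0.01 when libraries were centred on their medians. A PROTAC acts on protein, which was not measured. EED differed by -0.48 ± 0.28, SUZ12 by -0.40 ± 0.25 and EZH1 by -0.36 ± 0.32, all with adjusted p-values of 0.472 to 0.656 (limma). PHF1, a PRC2 accessory factor, had the largest difference at 1.40 ± 0.25 (limma adjusted p = 0.0535). Of 37 HOX genes 17 were tested, and 2 had a higher response in T47D (0.835% of all tested genes), HOXB13 (2.53, and 1.60 on the deposited values) and HOXC13 (2.28). HOXB13 was near the filter in T47D, at 12.9 and 13.1 normalized counts with MS177 and 5.85 and 5.10 with DMSO. It passed there only through its MS177 libraries. Of 72 polycomb-marked developmental genes 28 were tested. A higher response in T47D was called for 3, FOXC1 (2.94), DLX4 (1.95) and ZIC2 (1.82), and a lower one for none. Both lists had 1 call with summed counts. These calls came partly from BT-549, where HOX genes had medians of -0.80 and -0.62 and the developmental genes -0.61 and -0.68. In T47D the medians were 0.15 and -0.34 for HOX genes and -0.29 and -0.05 for developmental genes.

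No difference was called among 52 cytosolic ribosomal proteins, 44 MYC and ribosome biogenesis genes, 26 interferon-stimulated genes, 15 MHC class I genes, 13 mitochondrially encoded genes, 33 lysosome and autophagy genes, 22 BCL2 family genes, 16 heat shock proteins, 11 cereblon and VHL ligase genes, or 4 blood, immune and endothelial markers. Ribosomal proteins had median responses of 1.72 in T47D replicate 1, -0.07 in T47D replicate 2, 0.07 in BT-549 replicate 1 and 0.59 in BT-549 replicate 2. In no ribosomal protein gene did both T47D libraries lie on the same side of both BT-549 libraries. Over all tested genes 23.4% lay above and 24.1% below. The member with the largest difference is named for each of these lists, none past the test (limma adjusted p of 0.0655 or more for all except TFEB, at 0.0565). On the log2 scale it was 0.89 for the ribosomal protein RPLP2, 1.87 for the MAX partner MXD4, 1.96 for the exonuclease ISG20, 1.62 for HLA-B and -0.99 for MT-ND4L. It was 2.89 for TFEB, a regulator of lysosome genes, 1.44 for the death effector BAX, -1.41 for the chaperone HSPA8, 1.01 for ELOB and 4.01 for HBA1. T47D replicates 1 and 2 responded by 2.33 and 0.01 for RPLP2, 0.94 and 0.23 for MXD4, and 4.22 and 2.29 for ISG20. They did so by 1.81 and 0.77 for HLA-B, -2.56 and 0.08 for MT-ND4L, and 1.39 and 0.44 for TFEB. For BAX the pair gave 2.51 and 0.98, for HSPA8 -1.24 and -1.30, for ELOB 2.60 and -0.01, and for HBA1 3.46 and 1.25. MYC had 2266 and 4160.4 normalized counts with MS177, against 2004 and 2111 with DMSO, in T47D, and 9218 and 8464 with MS177 and 3685 and 3883 with DMSO in BT-549. Its difference was -0.65 ± 0.41 (95% interval -1.64 to 0.35, limma adjusted p = 0.525). Among 25 replication-dependent histones tested, calls went in both directions, with H4C8 (2.19) and H2BC4 (2.39) higher in T47D (0.835% of all tested genes), and there were 0 calls with weights per group. Histone transcripts are mostly not polyadenylated, so poly(A) libraries read them in part.

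Outside the lists, several of the largest differences lay in genes of low level in 1 line. RBMS3, an RNA-binding protein, had 156 and 78.4 normalized counts with MS177, against 2.51 and 2.04 with DMSO, in T47D, and 163 and 146 with MS177 and 305 and 303 with DMSO in BT-549. Its rise in T47D gave the largest positive called difference, 6.07 ± 0.51 (limma adjusted p = 0.0217). PDGFB, a platelet-derived growth factor chain, had 751 and 1030.3 normalized counts with MS177, against 1431 and 1347 with DMSO, in T47D, and 100.01 and 92.0 with MS177 and 5.28 and 2.08 with DMSO in BT-549. It rose in BT-549, where its DMSO level lay under the filter of 10, and the difference of -5.12 ± 0.52 (limma adjusted p = 0.0231) was the most negative called. RASGRF1, a Ras exchange factor, had 19.9 and 56.3 normalized counts with MS177, against 67.7 and 40.8 with DMSO, in T47D. In BT-549 it had 19.6 and 17.4 with MS177 and was listed at 0 in both DMSO libraries. No fold is given for it in BT-549, and its fitted difference depends on the pseudocount. SHC3, KCNN1, NPAS3, CCDC184, PRR16 and PPP1R1B were likewise called with a group of a few normalized counts in at least 1 line. For KCNN1 the T47D MS177 libraries were far apart, at 224 and 53.3 normalized counts. On the deposited log2 values these differences were smaller, 3.65 for RBMS3, -2.12 for PDGFB, 2.53 for CCDC184, 2.51 for PRR16, 1.996 for NPAS3 and 1.53 for PPP1R1B, all still called. There RASGRF1 (-1.28), SHC3 (-1.44) and KCNN1 (2.80) were no longer called (limma adjusted p of 0.0506 to 0.281).

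Opposite movement at higher levels was seen in MAP2K6 and MCAM. MAP2K6, a kinase that activates p38, had 78.5 and 81.4 normalized counts with MS177, against 272 and 296 with DMSO, in T47D, and 588 and 478 with MS177 and 156 and 137 with DMSO in BT-549. It fell in T47D and rose in BT-549, with a difference of -3.66 ± 0.28 (limma adjusted p = 0.0187). MCAM, a cell adhesion molecule, had 1489.7 and 2027 normalized counts with MS177, against 227 and 279.7 with DMSO, in T47D, and 679.5 and 678 with MS177 and 1647 and 1585 with DMSO in BT-549. The rise in T47D and the fall in BT-549 gave 4.03 ± 0.29 (limma adjusted p = 0.0165). At low levels in T47D, ITPKA, an inositol trisphosphate kinase, and KCNJ2, a potassium channel, fell in T47D and rose in BT-549. PKDCC, a secreted kinase, did the reverse. In T47D ITPKA had 21.1 and 22.1 normalized counts with MS177, against 52.7 and 56.1 with DMSO. KCNJ2 had 2.34 and 3.02 with MS177, against 11.7 and 10.2 with DMSO, so it passed the filter in T47D only through its DMSO libraries. PKDCC had 60.9 and 58.3 with MS177, against 25.1 and 14.3 with DMSO.

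**Figure D5:**
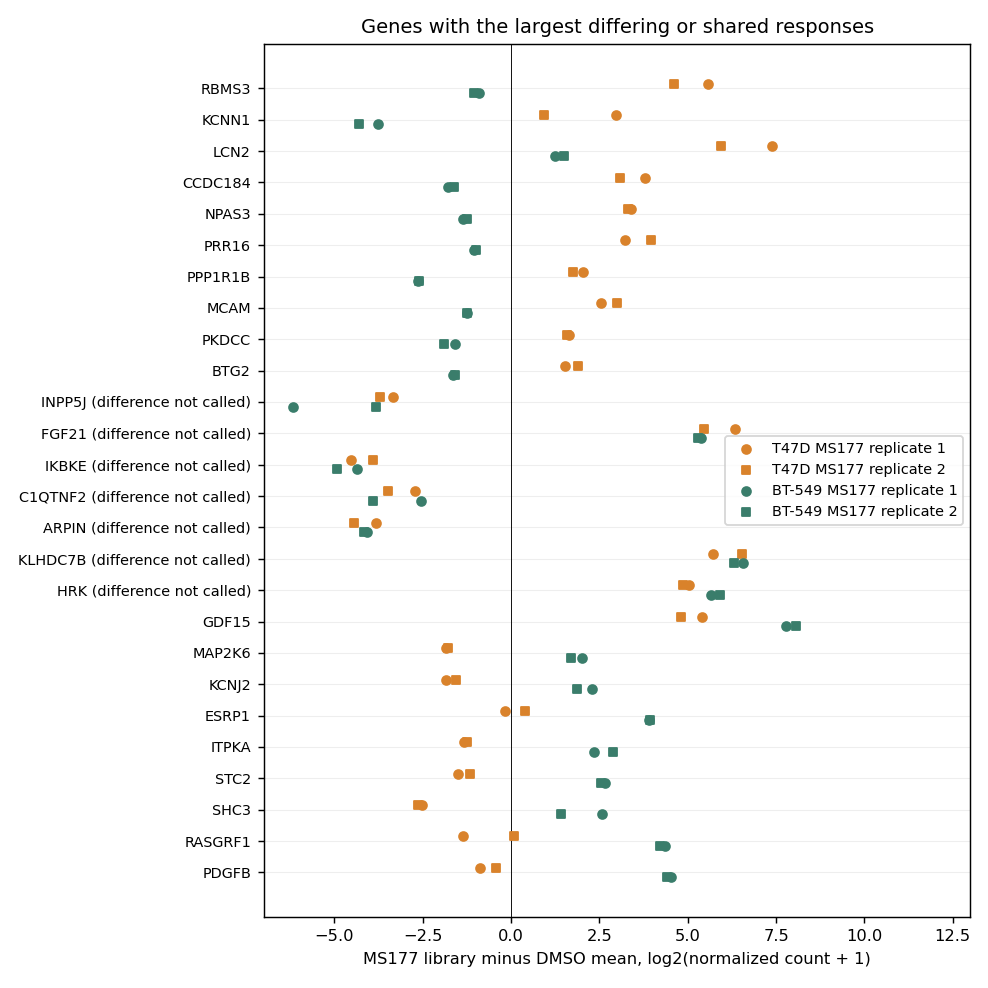
Response of each MS177 library against the mean of its DMSO pair, on log2(normalized count + 1), for the genes with the largest called differences, the largest opposite responses and the largest shared responses. Orange marks are T47D and green marks BT-549, circles replicate 1 and squares replicate 2. The lines are apart for the called genes at the top and bottom and close together for the shared ones in the middle.

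Among the largest responses shared by both lines was that of GDF15, described above, whose difference passed the test. KLHDC7B rose by 6.13 in T47D and 6.45 in BT-549. FGF21, a stress-induced hormone, rose by 5.90 in T47D and 5.33 in BT-549. HRK, a BH3-only cell death activator, rose by 4.96 in T47D and 5.78 in BT-549. With DMSO, FGF21 had 0.836 and 1.02 normalized counts in T47D and 2.11 and 0 in BT-549. HRK had 3.17 and 0 with DMSO in BT-549. The sizes of these rises from near 0 depend on the pseudocount. IKBKE, a kinase of innate immune signalling, fell in both, with log2 responses of -4.22 in T47D and -4.63 in BT-549. C1QTNF2 and INPP5J fell in both lines too, as did ARPIN, whose locus overlaps a readthrough gene, so its counts are uncertain. The differences of the other 7 genes did not pass the test. For HRK it was -0.83 ± 0.90, and on the deposited log2 scale it was 2.48 with a limma adjusted p of 0.0261, so its direction depends on the scale.

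The called genes were set beside T47D-TR, a further line of the series whose name the labels do not explain, treated with the same dose of MS177 for 48 h. Its 4 libraries take no part in the difference, and its depth is unknown. MS177 changed 7945 of 14555 genes there (54.6%; 27.6% higher and 26.9% lower). Of the 131 genes with a lower response in T47D, 119 were tested in T47D-TR, and 86 of them (72.3%) fell and 19 (16.0%) rose. Of the 123 with a higher response, 107 were tested, of which 65 (60.7%) rose and 11 (10.3%) fell. Over all genes tested in both, 27.8% rose and 27.9% fell. The E2F and S phase list fell in T47D-TR for 43 of 44 genes, with a median of -2.87, and its log2 response there was -3.93 for DTL and -4.68 for MCM10. LCN2 rose by 8.30 in T47D-TR. BTG2, which rose in T47D, had a response of -0.43 in T47D-TR, and HMOX1, not called in T47D, one of 2.81.

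For C24, labelled as an inhibitor of the EZH2 methyltransferase and given at the same dose and time, the difference between T47D and BT-549 was called for 9 of 14716 genes (0.0612%; limma, with 949 at an unadjusted p under 0.05). It uses the same DMSO libraries, so the values only stand side by side. All 9 differences were negative, and 6 were of sterol and lipid genes, which rose with C24 in BT-549: SCD (-1.83), HMGCS1 (-1.55), MVK (-1.29), INSIG1 (-1.21), FDFT1 (-1.14) and SQLE (-0.95). Of these INSIG1 was also called for MS177. The C24 difference was 0.02 for DTL, 0.07 for XBP1 and -0.67 for STC2, none of them called. Genes with a lower MS177 response in T47D had a median C24 difference of -0.01 (125 tested) and those with a higher one 0.17 (110 tested).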

How the data were processed

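Transcripts were sequenced from polyadenylated RNA of 8 libraries in 4 groups of 2. RNeasy extraction and NEBNext Ultra II library preparation are given per the labels' protocols. The values the authors deposited are on a log2 scale, a variance-stabilizing transform made within each table of 4 libraries. RSEM, DESeq and hg38 are named in the submitters' processing notes, without tool versions. Each table's lowest value was taken as a count of 0 and the transform was undone to give normalized counts. For T47D and BT-549, 100% of values up to 1000 reads were then whole multiples of 1 step per library, within 0.05 of a read. This was not so in the T47D-TR table, where the counts are an assumption. Intervals cover counting error and the spread of these libraries only.

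Differences were tested with limma (version 3.58.1, R 4.3.3; mean trend, robust empirical Bayes, group means, 8 libraries) on log2(normalized count + 1), two-sided, with Benjamini-Hochberg adjustment over 14739 genes and a threshold of 0.05. A pseudocount of 1 understates the changes of low genes. C24 and T47D-TR were fitted in the same way on their own tables. The scripts were tested on simulated data with 1 spread per group for all genes. With each group's spread as observed, 0 of 100 differences of size 1 and 0 of 100 of size 2 (log2) were called. With the T47D MS177 spread set to that of T47D with DMSO, 64 and 98 of 100 were called. The comparison, its 32 gene lists and the named genes' rule were chosen with earlier results of these data known. Named genes were the PRC2 core, FOXM1, MYC and RB1, the 6 largest called differences each way, the 4 largest opposite and the 4 largest shared responses each way, and up to 2 genes per list. Other genes in the text are called members of those lists, ATF4 targets and markers chosen after their values were seen. Alternatives were other pseudocounts, filters, scalings, limma settings, voom on the recovered reads, replicate blocks and leaving out each library. The other compounds of the series were not analysed here, apart from their use for the spread in 1 alternative. That alternative lacked T47D replicate 2 of the compound labelled MS177-N1, whose column bore the name of MS177-N2 replicate 2. Results for 2 list genes are not reported here.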

Additional observations from a re-analysis of the deposited data

Results flagged for a closer look

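A test of the difference itself showed that 254 genes responded differently to MS177 in T47D and BT-549. Values in brackets are log2 differences, T47D response minus BT-549 response, each past the limma threshold of 0.05 in the fit of all 8 libraries. Each of them lost the call when any 1 of the T47D DMSO or BT-549 libraries was left out.

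Among cell cycle and DNA repair genes these differences were DTL (-3.26), MCM10 (-2.89), CDC25A (-1.75), CDK1 (-1.79), KIF2C (-1.72), BRCA2 (-2.93) and EXO1 (-2.89). Among stress, metabolic, signalling and epithelial genes with a lower response in T47D they were GDF15 (-2.82), STC2 (-3.94), XBP1 (-2.33), HMOX1 (-2.01), CYP1A1 (-3.21), NDRG1 (-1.67), INSIG1 (-1.46), DUSP5 (-2.18) and ESRP1 (-3.81). Other genes with a lower response in T47D were PDGFB (-5.12), RASGRF1 (-4.92), SHC3 (-4.57), ITPKA (-3.91), KCNJ2 (-3.78) and MAP2K6 (-3.66).

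Of genes with a higher response in T47D, the inflammatory and growth factor genes were LCN2 (5.28), IRF1 (2.26), HBEGF (1.40) and DUSP1 (2.52). Developmental, matrix, epithelial and adhesion genes were HOXB13 (2.53), HOXC13 (2.28), FOXC1 (2.94), DLX4 (1.95), COL3A1 (2.79), ELF3 (3.25) and MCAM (4.03). The growth-restraining and histone genes were BTG2 (3.32), ZMAT3 (2.31), H2BC4 (2.39) and H4C8 (2.19), and the rest were PKDCC (3.34), PPP1R1B (4.52), PRR16 (4.61), NPAS3 (4.66), CCDC184 (5.13), KCNN1 (5.99) and RBMS3 (6.07). RASGRF1, NPAS3 and CCDC184 had a library at 0 in 1 DMSO group. With a pseudocount of 5 the differences were 2.997 for NPAS3, -2.80 for RASGRF1 and -2.86 for SHC3, the last 2 then not called. The deposited log2 values, which compress low levels, moved 15 of the bracketed values by over 1.5 times. Of these CYP1A1 (-0.59), ESRP1 (-1.49), RASGRF1 (-1.28), SHC3 (-1.44) and KCNN1 (2.80) were not called there. PDGFB (-2.12), ITPKA (-2.33), KCNJ2 (-1.60), HOXB13 (1.60), PKDCC (2.12), PPP1R1B (1.53), PRR16 (2.51), NPAS3 (1.996), CCDC184 (2.53) and RBMS3 (3.65) were.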

How the results depend on the processing

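Of the 254 genes with a different response, 253 kept their direction on the deposited log2 values and all did under the other alternatives in which they were tested, which the choice of genes with large differences largely fixes. The count of 254 lay between 236 and 307 under both other pseudocounts, both other filters, the deposited values, quantile and median centring, limma without trend or without robust fitting, and voom on the recovered reads. Scaling to summed counts, which shifted the median difference of all genes to -0.11, gave 123 and weights per group 88. The spread of T47D and BT-549 libraries of all compounds gave 1861. Leaving out 1 library gave 0 to 7159. Called list genes numbered 67, and 38 with summed counts, 31 with weights, 244 with the wider spread and 0 to 498 without 1 library. For the T47D response (2254), weights gave 397, the wider spread 5293, T47D alone 0 and leaving out 1 library 201 to 9348. For BT-549 (875), the deposited values gave 511, weights 4536, the wider spread 3059, BT-549 alone 3468 and leaving out 1 library 39 to 4869. Fits with T47D MS177 down to 1 library assume that it varied like the other groups. The C24 difference (9) had 1 to 25 calls without 1 library, and the T47D-TR response (7945) had 5300 to 7136. Apart from the construction of those fits, the cause was not tested.

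With the replicate number as a block, 0 genes differed between the lines and 0 list genes, with 1358 genes at an unadjusted p under 0.05 by limma, and the counts were 127 for T47D, 21 for BT-549, 1 for C24 and 7367 for T47D-TR. Same-numbered libraries did not deviate together (correlation -0.28 in T47D and -0.39 in BT-549). With 2 libraries per group this does not settle whether the numbers pair the samples. With the numbers crossed, a setting chosen after seeing the data, 0 genes and 0 list genes differed (2233 unadjusted), and the counts were 1427 for T47D, 212 for BT-549, 164 for C24 and 9007 for T47D-TR.

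Among the named genes, only differences that were not called changed sign. HRK was 0.58 with a pseudocount of 5 and 2.48 on the deposited values, where C1QTNF2 was -0.77, IKBKE -0.91, INPP5J -1.56 and KLHDC7B 0.28. C1QTNF2 was -0.016 with summed counts, and median centring gave ARPIN 0.056 and EZH2 0.0060. Leaving out 1 library at a time gave these ranges: ARPIN -0.81 to 0.76, C1QTNF2 -0.56 to 0.80, ELOB -0.29 to 2.32, EZH2 -0.19 to 0.037, FGF21 -0.24 to 1.40, HRK -1.86 to 0.20. Further ranges were IKBKE -0.26 to 1.08, KLHDC7B -0.72 to 0.087, MT-ND4L -2.31 to 0.33, RB1 -1.74 to 0.18 and RPLP2 -0.27 to 2.05.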
